A study of Mus musculus with 18 samples.

Results

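The genes *En1*, *En2*, *Pax7*, *Gata2*, *Gata3*, *Tal1*, *Foxa2*, *Lmx1b*, *Pou4f1* and *Sox14* encode transcription factors that pattern the embryonic midbrain or specify its neurons. They were chosen by name, and each symbol was matched to an Ensembl identifier through GENCODE M21. All 10 of the 10 genes were found among the 53468 genes of the count table. The mRNA came from forebrain, midbrain and hindbrain dissected at postnatal day 25 (P25) from 3 Fmr1CRE mice and 3 wild-type (WT) littermates, 1 library per region and mouse and 18 libraries in all. Fmr1CRE mice carry a knock-in, made by genome editing on a C57BL/6 background, of a variant in a cis-regulatory element of *Fmr1*, the gene of the fragile X protein. Both genotypes shared the litter, the age and the dissected regions, and no agent was given. Several Fmr1CRE lines were founded in the study, and the sources used here do not state which of them gave these mice.

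The midbrain forms between an *Otx2* territory in front and a *Gbx2* territory behind, and the isthmus at that border induces the engrailed genes *En1* and *En2*. Along its dorsal to ventral axis, Pax7 marks the roof, which becomes the tectum. Gata2, Gata3 and Tal1 select the GABAergic fate over the glutamatergic one, and Sox14 is made by some of the GABAergic precursors. At the ventral midline, Foxa2 and Lmx1b act in the floor plate and in the dopamine neurons that arise from it, and Lmx1b and Gata3 also act in serotonin neurons. Pou4f1 (Brn3a) is found in postmitotic neurons of the tectum, red nucleus, medial habenula and sensory ganglia. These are roles known from embryos and mature neurons, while the libraries described here hold bulk RNA of whole juvenile regions.

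In promoters from RefSeq (build GRCm38.p6), stretches of 300 bases were read for 9 of the 10 genes and searched on both strands. *En2* was not matched. The GABAergic selector group is shown, because Gata2, Gata3 and Tal1 bind DNA together, through GATA motifs (the letters AGATAA or AGATAG or TGATAA or TGATAG) and E-boxes (CAGATG). Each sequence runs 5′ to 3′ on the strand of its gene, with matches of either motif on either strand in capitals. The *Gata3* stretch is chr2:9878551-9878850 on the minus strand, the *Tal1* stretch chr4:115056176-115056475 on the plus strand, the *Sox14* stretch chr9:99876121-99876420 on the minus strand and the *Gata2* stretch chr6:88193641-88193940 on the plus strand.
Gata3: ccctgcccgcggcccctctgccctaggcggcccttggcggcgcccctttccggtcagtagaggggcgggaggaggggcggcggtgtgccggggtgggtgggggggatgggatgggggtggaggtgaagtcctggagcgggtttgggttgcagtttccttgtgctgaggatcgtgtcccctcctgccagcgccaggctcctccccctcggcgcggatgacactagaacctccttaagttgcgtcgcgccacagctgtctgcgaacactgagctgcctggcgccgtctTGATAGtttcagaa
Tal1: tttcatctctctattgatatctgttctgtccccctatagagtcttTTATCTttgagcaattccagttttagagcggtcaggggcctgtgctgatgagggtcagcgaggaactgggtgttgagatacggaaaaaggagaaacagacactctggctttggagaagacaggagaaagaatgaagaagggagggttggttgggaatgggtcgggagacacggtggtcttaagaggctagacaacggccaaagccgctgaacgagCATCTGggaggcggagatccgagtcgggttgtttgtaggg
Sox14: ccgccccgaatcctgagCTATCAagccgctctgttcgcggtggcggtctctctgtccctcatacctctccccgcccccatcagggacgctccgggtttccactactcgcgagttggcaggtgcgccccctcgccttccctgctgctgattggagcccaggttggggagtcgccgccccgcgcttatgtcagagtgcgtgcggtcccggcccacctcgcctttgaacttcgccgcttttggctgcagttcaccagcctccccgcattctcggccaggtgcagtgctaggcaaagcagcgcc
Gata2: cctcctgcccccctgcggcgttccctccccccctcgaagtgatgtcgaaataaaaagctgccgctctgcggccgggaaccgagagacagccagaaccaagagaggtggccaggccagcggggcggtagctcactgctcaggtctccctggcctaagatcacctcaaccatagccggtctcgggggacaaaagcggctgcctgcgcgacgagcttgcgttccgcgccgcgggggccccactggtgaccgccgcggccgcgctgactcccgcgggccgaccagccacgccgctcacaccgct

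The *Gata3*, *Tal1* and *Sox14* stretches each held 1 GATA motif, so that 3 of the 9 promoters held one, while 29.8% of all 32851 promoters of the same length did. CAGATG stood once, in *Tal1*, which is 1 of 9 against 17.2% of all promoters. The shorter letters TAAT, at the core of many homeodomain sites, were found in 1 of 9 (*En1*), against 58.0% of all. The GC content of the 9 stretches ran from 50.7% in *Tal1* to 78.3% in *Pou4f1* with a median of 65.7%, and the median of all promoters was 52.7%. These matches describe the sequence alone. For *Tal1*, *Gata2* and *Foxa2* more than 1 promoter is listed, and 1 was read.

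Libraries held from 22455512 to 28061185 counts. *Fmr1* itself had 1414 to 2163 counts in the 18 libraries, and its log2 difference between genotypes was between -0.0033 and 0.15 in the 3 regions, with no call at an adjusted p of 0.05 (edgeR). The regions were told apart by their markers: the Hox gene *Hoxb8* had 192 to 1133 counts in hindbrain and 0 to 2 elsewhere. The midbrain libraries also held RNA of neighbouring tissue. The Purkinje cell gene *Pcp2* had 623 to 2654 in midbrain against 2566 to 6413 in hindbrain and 0 to 33 in forebrain. The mice numbered 3 carry a doubt: 5 of 5 genes that separated the Fmr1CRE and the WT mouse of that number in midbrain and hindbrain, and that were steady over regions in the other mice, separated them the opposite way in forebrain, against 0 of 1 for number 1 and no such gene for number 2. Without the requirement of steady levels the counts were 11 of 15, 11 of 19 and 7 of 17, and whether the forebrain or the other libraries were exchanged, if any were, cannot be told apart. The region tests of the 10 genes that use forebrain, and their genotype tests in forebrain, are therefore given with and without these mice. The genotype tests on summed counts were fitted without single mice, and not without both of these. The shares over regions, the correlations and the lists of other genes rest on all 6 mice. The doubt also covers genotype in midbrain and hindbrain, where most values of single genes are given with these mice included.

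Between regions, the 10 genes were compared within mice. At an adjusted p under 0.05 (edgeR, all 18 libraries, mouse as a block), 9 of the 10 were higher in midbrain than in forebrain, where 9.42% of the 19313 genes tested were higher. Against hindbrain, 6 were higher in midbrain and 1 was lower, where 25.2% of the genes tested were higher and 23.9% were lower. *En1*, *Pax7*, *Gata3*, *Tal1*, *Foxa2* and *Sox14* were higher in midbrain than in both other regions, 6 of 10, a pattern of 2.81% of the genes tested. In 9 of the 10 all 6 midbrain libraries lay above all 6 forebrain libraries, which held for 5.54% of genes. Against hindbrain the 6 midbrain libraries lay above the other 6 in 5 of the 10 (16.3% of genes) and below them in 1 (11.7% of genes). *Pax7*, *Foxa2* and *Sox14* passed the filter on low counts through midbrain almost alone, so that a difference was built into their being tested. The 10 genes were also chosen with earlier results of these data known, so these shares describe the genes and do not test them as a group. The calls over all genes were 51.7% higher in midbrain against forebrain and 51.0% higher in forebrain against hindbrain, and with libraries scaled by total counts alone these shares were 69.3% and 39.0%, while each of the 10 genes kept its direction. In bulk tissue, fewer cells that express a gene and less of its RNA per cell cannot be told apart.

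**Figure D1:**
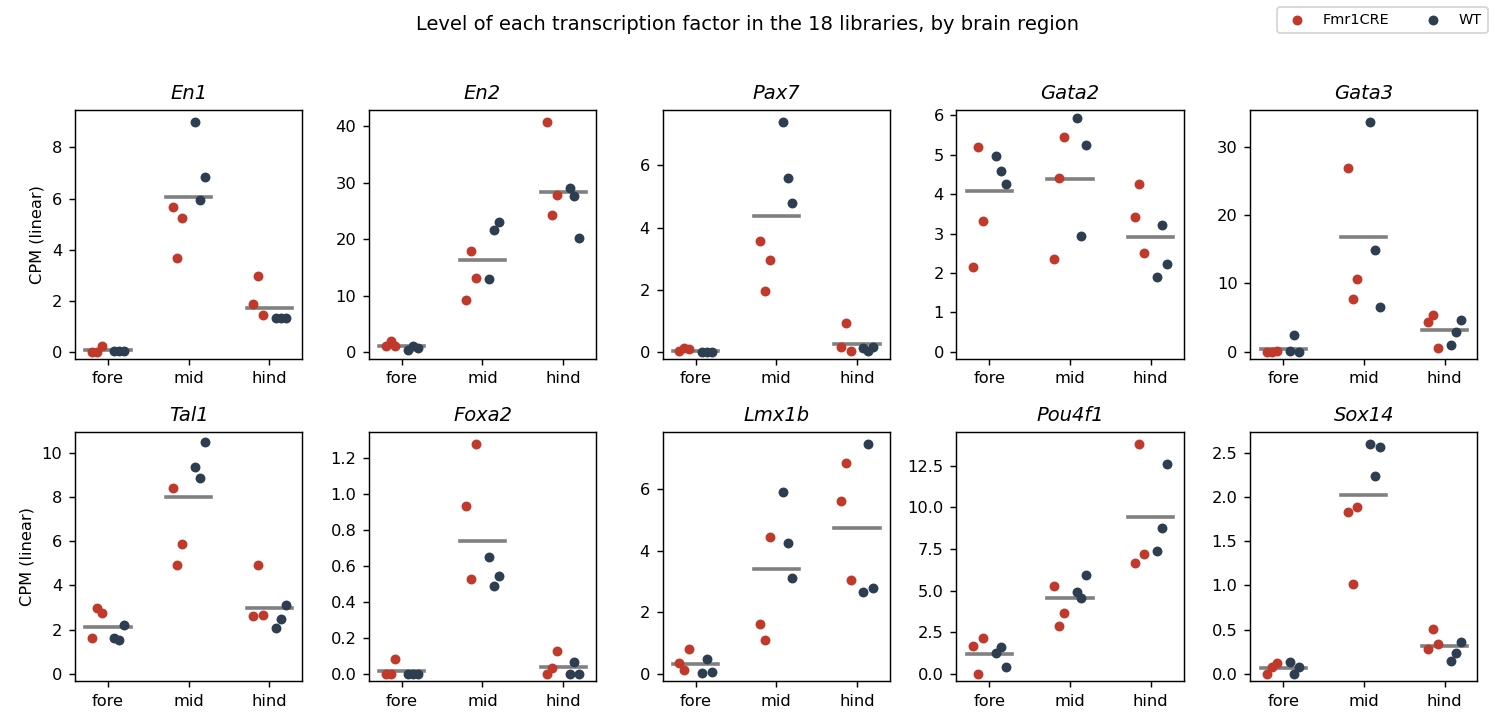
CPM (library-scaled counts, linear axis from 0, its own scale in each panel) of the 10 genes in forebrain, midbrain and hindbrain; each point is 1 library, coloured by genotype, and the grey bar is the mean of 6. *En1*, *Pax7*, *Foxa2* and *Sox14* stood near 0 in forebrain, *En2*, *Lmx1b* and *Pou4f1* had their highest mean in hindbrain, and *Gata2* overlapped in all 3 regions.

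Of the engrailed pair, *En1* (ENSMUSG00000058665, chr1:120602418-120607992, plus strand, GRCm38 as are all gene positions here) was a midbrain gene. Its midbrain counts were 139, 97 and 131 in the Fmr1CRE mice and 208, 146 and 200 in the WT mice. In hindbrain they were 53, 82 and 34 in Fmr1CRE and 35, 40 and 33 in WT, and in forebrain 0, 0 and 5 in Fmr1CRE and 1, 1 and 1 in WT. Every midbrain library was above every library of the other regions. The level in CPM, counts scaled to the same library size, was 6.06 ± 1.78 in midbrain, 1.71 ± 0.652 in hindbrain and 0.0559 ± 0.0792 in forebrain (SD, n = 6). The log2 difference between midbrain and forebrain was 6.67 ± 0.53 (SE; 95% confidence interval 5.53 to 7.81; adjusted p = 5.27e-06, edgeR), the 13th largest rise of the 19313 genes. Summed over mice, 921 counts stood against 8, a ratio of 115 with an exact 95% interval of 58.2 to 267 that covers counting error only. Of the 8 forebrain counts 5 came from Fmr1CRE replicate 3, and without that mouse the log2 difference was 7.73. Against hindbrain it was 1.83 ± 0.36 (SE; adjusted p = 9.72e-04, edgeR; higher in 6 of 6 mice, two-sided exact sign-flip test p = 0.03125, the smallest that 6 mice allow).

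*En2* (ENSMUSG00000039095, chr5:28165694-28172166, plus strand), the partner of *En1*, had its highest level in hindbrain. Its hindbrain counts were 1145, 675 and 657 in Fmr1CRE and 777, 835 and 508 in WT. In midbrain they were 227, 476 and 329 in Fmr1CRE and 299, 529 and 677 in WT, and in forebrain 25, 46 and 25 in Fmr1CRE and 8, 24 and 16 in WT. Midbrain and hindbrain overlapped, since the midbrain libraries of WT replicates 2 and 3 (21.5 and 23.1 CPM) were above the hindbrain library of WT replicate 3 (20.2), while forebrain was apart from both. Midbrain exceeded forebrain by 4.07 ± 0.33 on the log2 scale (SE; adjusted p = 7.00e-06, edgeR). Against hindbrain the log2 difference was -0.82 (95% confidence interval -1.41 to -0.23; adjusted p = 0.0233, edgeR), and it was negative in all but 1 of the 6 mice (exact sign-flip test, p = 0.0625). This call was lost without Fmr1CRE replicate 1 (adjusted p = 0.0864), Fmr1CRE replicate 3 (0.0736) or WT replicate 1 (0.0642), and in the WT mice alone (0.210). The cerebellum, where engrailed genes stay active, went with hindbrain by its markers: the summed CPM of 12 cerebellar genes was 1691 to 3473 in hindbrain, 843 to 1851 in midbrain and 404 to 698 in forebrain. Their part in the *En2* levels was not tested.

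*Pax7* (ENSMUSG00000028736, chr4:139737062-139833528, minus strand), the paired-box factor of the tectal roof, was nearly absent outside midbrain. Its midbrain counts were 88, 52 and 74 in Fmr1CRE and 171, 137 and 140 in WT. In hindbrain they were 4, 26 and 1 in Fmr1CRE and 3, 1 and 4 in WT, and in forebrain 1, 3 and 2 in Fmr1CRE and 0, 0 and 0 in WT. All midbrain libraries were above all others, and 1 hindbrain library, of Fmr1CRE replicate 2, held 26 of the 39 hindbrain counts. Midbrain exceeded forebrain by 6.81 ± 0.79 (log2, SE; adjusted p = 8.12e-05, edgeR) and hindbrain by 4.60 ± 0.65 (adjusted p = 6.78e-05). Without Fmr1CRE replicate 2 the latter was 5.56. Summed counts of 662 in midbrain and 6 in forebrain gave a ratio of 110 (exact 95% interval 50.4 to 302). In the 3 WT mice the forebrain total of 0 allows up to 3 counts, so the gene was not detectable there at this depth.

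Among the GABAergic selector genes, *Gata2* and *Gata3* differed in their pattern over regions. *Gata2* (ENSMUSG00000015053, chr6:88193891-88207032, plus strand), a zinc finger factor that also acts in endothelium and blood, had 54, 126 and 78 forebrain counts in Fmr1CRE and 113, 114 and 109 in WT. In midbrain it had 58, 117 and 136 in Fmr1CRE and 137, 72 and 154 in WT, and in hindbrain 96, 118 and 59 in Fmr1CRE and 51, 97 and 56 in WT. The 3 regions overlapped, with levels of 4.08 ± 1.15, 4.39 ± 1.45 and 2.92 ± 0.874 CPM in forebrain, midbrain and hindbrain (SD, n = 6). The log2 difference between midbrain and forebrain was 0.12 with a 95% confidence interval of -0.44 to 0.67 (adjusted p = 0.807, edgeR; higher in 4 of 6 mice, exact sign-flip test p = 0.625), and without the mice numbered 3 it was -0.11. Against hindbrain it was 0.54 (interval -0.025 to 1.11; adjusted p = 0.105, edgeR), which became a call without Fmr1CRE replicate 1 (0.0213). In the authors' variance-stabilized log2 values, where *Gata2* was the 1 gene of the 10 in the copy used here, the means were 7.18 ± 0.322, 7.25 ± 0.377 and 6.85 ± 0.289 (SD, n = 6). A list of 10 endothelial genes summed to 154 to 263 CPM in forebrain, 156 to 191 in midbrain and 169 to 208 in hindbrain, and 10 blood genes to 507 to 1559, 440 to 1021 and 1060 to 2729. Within the blood list, the erythroid enzyme gene *Alas2* had 101 to 768 counts and the globin gene *Hbb-bs* 4937 to 33161 over the 18 libraries, while the erythroid factor *Gata1* had 0 to 3. Their part in the *Gata2* level was not tested.

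*Gata3* (ENSMUSG00000015619, chr2:9857078-9890034, minus strand) had a midbrain level of 16.7 ± 11.1 CPM (SD, n = 6) and the widest spread among mice of the 10 genes there. Its midbrain counts were 661, 203 and 265 in Fmr1CRE and 777, 366 and 193 in WT. In hindbrain they were 123, 149 and 13 in Fmr1CRE and 25, 87 and 116 in WT, and in forebrain 1, 0 and 2 in Fmr1CRE and 2, 63 and 0 in WT. Midbrain lay above both other regions in every library, and the forebrain library of WT replicate 2 stood alone among the forebrain libraries. The log2 difference between midbrain and forebrain was 5.72 ± 0.97 (SE; adjusted p = 0.00123, edgeR), 8.48 without WT replicate 2, and no call in the WT mice alone (adjusted p = 0.0712). Against hindbrain it was 2.41 ± 0.80 (adjusted p = 0.0226, edgeR; higher in 6 of 6 mice), a call lost without Fmr1CRE replicate 1 (0.0540), Fmr1CRE replicate 3 (0.0786) or WT replicate 1 (0.0907), without both mice numbered 3 (0.0617) and in the WT mice alone (0.115). The counts of *Gata3* also depend on how they were made. Gene counts were scaled by transcript length, and 1 short *Gata3* transcript, with an effective length of 19.2 bases, took 2.69% of the gene's estimated reads and 70.6% of its estimated abundance. As a result the table holds 3046 counts of *Gata3* over all libraries for 1260 estimated reads, 2.42 counts per read, against 0.963 to 1.21 for the other 9 genes. The estimated reads could not be tied to samples. Sorted, their 6th highest value was 87 and the next 86, where the table counts are 193 and 149. The gap that sets the midbrain counts apart was thus not seen in reads, and whether the regions overlap there could not be told. The genes *4930412O13Rik* and *9230102O04Rik*, which overlap *Gata3*, had 26 and 22 counts in all.

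*Tal1* (ENSMUSG00000028717, chr4:115056426-115071755, plus strand), a basic helix-loop-helix factor that works with GATA proteins, was present in every region and highest in midbrain. Its midbrain counts were 207, 130 and 147 in Fmr1CRE and 216, 218 and 307 in WT. In hindbrain they were 73, 137 and 63 in Fmr1CRE and 56, 75 and 79 in WT, and in forebrain 41, 72 and 65 in Fmr1CRE and 37, 38 and 57 in WT. The hindbrain library of Fmr1CRE replicate 2 was above that mouse's midbrain library, and the other 5 mice were higher in midbrain. Midbrain exceeded forebrain by 1.95 ± 0.26 (log2, SE; adjusted p = 2.08e-04, edgeR) and hindbrain by 1.47 ± 0.25 (adjusted p = 2.89e-04; exact sign-flip test over mice, p = 0.0625).

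*Sox14* (ENSMUSG00000053747, chr9:99874106-99876170, minus strand), an HMG-box factor of GABAergic precursors, had midbrain counts of 45, 27 and 47 in Fmr1CRE and 60, 55 and 75 in WT. In hindbrain they were 8, 14 and 8 in Fmr1CRE and 4, 7 and 9 in WT, and in forebrain 0, 2 and 3 in Fmr1CRE and 3, 0 and 2 in WT. The midbrain libraries were again above all the others. Midbrain exceeded forebrain by 4.81 ± 0.50 (log2, SE; adjusted p = 3.49e-05, edgeR), with 309 counts against 10, a ratio of 30.9 (exact 95% interval 16.6 to 65.1). It exceeded hindbrain by 2.67 ± 0.41 (adjusted p = 1.25e-04).

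The floor plate and monoamine genes also differed from each other. *Foxa2* (ENSMUSG00000037025, chr2:148042877-148046969, minus strand), a forkhead factor kept by adult dopamine neurons, had midbrain counts of 23, 14 and 32 in Fmr1CRE and 15, 12 and 16 in WT. In hindbrain it had 0, 1 and 3 in Fmr1CRE and 0, 2 and 0 in WT, and in forebrain 0, 0 and 2 in Fmr1CRE and 0, 0 and 0 in WT. It was the lowest of the 10 genes in midbrain, at 0.738 ± 0.311 CPM (SD, n = 6). The log2 difference was 5.46 ± 0.65 against forebrain (SE; adjusted p = 1.07e-04, edgeR) and 4.22 ± 0.55 against hindbrain (adjusted p = 3.45e-05). The summed counts of 112 against 2 and 112 against 6 gave ratios of 56.0 (exact 95% interval 15.1 to 468) and 18.8 (8.38 to 52.3), so that the size of these ratios is loosely set. Both forebrain counts came from Fmr1CRE replicate 3, without which the log2 difference to forebrain was 7.04.

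*Lmx1b* (ENSMUSG00000038765, chr2:33560965-33640511, minus strand), a LIM homeodomain factor needed by serotonin neurons, had its highest mean in hindbrain. Its hindbrain counts were 157, 190 and 72 in Fmr1CRE and 71, 225 and 70 in WT. In midbrain they were 40, 29 and 111 in Fmr1CRE and 136, 104 and 91 in WT, and in forebrain 9, 3 and 19 in Fmr1CRE and 1, 12 and 2 in WT. Midbrain and hindbrain overlapped widely, and forebrain lay below both. Midbrain exceeded forebrain by 3.49 ± 0.58 (log2, SE; adjusted p = 0.00108, edgeR). Against hindbrain the difference was -0.53 with a 95% confidence interval of -1.58 to 0.53 (adjusted p = 0.400, edgeR; higher in midbrain in 3 of 6 mice), and in the WT mice alone it was 0.22.

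*Pou4f1* (ENSMUSG00000048349, chr14:104461676-104467999, minus strand), a POU homeodomain factor, was highest in hindbrain in every mouse. Its hindbrain counts were 186, 383 and 170 in Fmr1CRE and 198, 263 and 318 in WT. In midbrain they were 130, 76 and 91 in Fmr1CRE and 114, 112 and 174 in WT, and in forebrain 43, 0 and 51 in Fmr1CRE and 29, 41 and 11 in WT. Library by library the 3 regions did not overlap in CPM. The log2 difference between midbrain and hindbrain was -1.11 (95% confidence interval -2.15 to -0.072). It missed the threshold in edgeR (adjusted p = 0.0717) and passed it with DESeq2 (0.0432) and without mouse as a block (0.0429), and it was negative in 6 of 6 mice (exact sign-flip test, p = 0.03125). Midbrain exceeded forebrain by 1.95 ± 0.53 (SE; adjusted p = 0.0201, edgeR). That call was lost without any 1 of the WT mice (adjusted p = 0.0602, 0.0511 and 0.0645), without both mice numbered 3 (0.0835) and in the Fmr1CRE mice alone (0.316). The forebrain library of Fmr1CRE replicate 2, with 0 counts, was far from the 43 and 51 of the other Fmr1CRE mice.

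**Figure D2:**
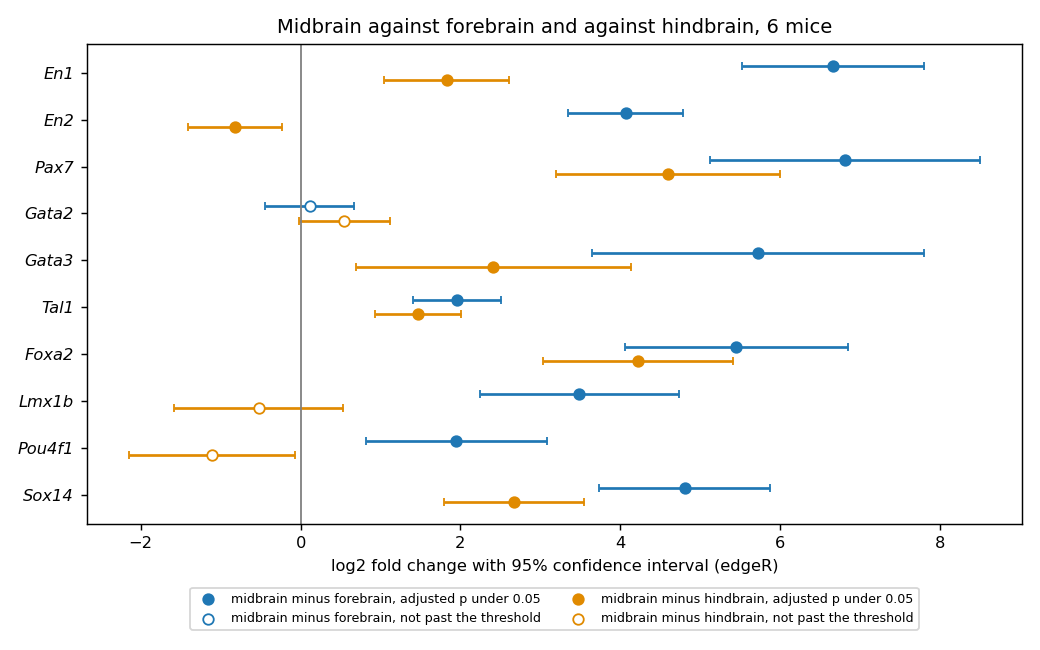
Log2 fold change between midbrain and forebrain (blue) and between midbrain and hindbrain (orange) for each gene, with 95% confidence intervals from edgeR; filled points passed an adjusted p of 0.05. All but *Gata2* were filled against forebrain, and against hindbrain *En2*, *Lmx1b* and *Pou4f1* lay below 0.

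Without the mice numbered 3, 8 of the 10 genes were still called higher in midbrain than in forebrain, *Pou4f1* being the gene lost, where 6.73% of 19463 genes were called higher. The log2 difference was then 7.89 for *En1*, 3.89 for *En2*, 6.96 for *Pax7*, 5.33 for *Gata3*, 2.11 for *Tal1*, 7.07 for *Foxa2*, 3.60 for *Lmx1b* and 5.11 for *Sox14*. In the 3 Fmr1CRE mice alone the number was 4, where 0.535% of 19434 genes were called higher, the calls of *Pax7* (adjusted p = 0.0567, edgeR), *Tal1* (0.0959), *Foxa2* (0.0553), *Lmx1b* (0.114) and *Pou4f1* being lost. Against hindbrain those mice alone lost *En1* (0.203) and *Tal1* (0.101). The direction of all these differences stayed as in the full set.

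The second axis of the comparison was forebrain against hindbrain. At an adjusted p under 0.05 (edgeR), 6 of the 10 genes were lower in forebrain, where 25.3% of the 19313 genes tested were lower. These were *En1* (log2 difference -4.84), *En2* (-4.89), *Gata3* (-3.31), *Lmx1b* (-4.02), *Pou4f1* (-3.06) and *Sox14* (-2.13). The values of the others were -2.21 for *Pax7* (adjusted p = 0.0677), -1.23 for *Foxa2* (0.298), -0.48 for *Tal1* (0.126) and 0.43 for *Gata2* (0.192). Without Fmr1CRE replicate 3 the value was -5.90 for *En1* and -2.45 for *Foxa2*. Without both mice numbered 3 it was -6.20 for *En1*, -4.92 for *En2*, -4.54 for *Lmx1b*, -3.12 for *Pou4f1*, -2.43 for *Sox14*, -2.58 for *Pax7*, -2.70 for *Foxa2*, -0.63 for *Tal1* and 0.32 for *Gata2*, and 5 of the 10 were called lower, where 18.6% of genes were. The *Gata3* value was -6.08 without WT replicate 2, -2.68 without Fmr1CRE replicate 2 and -2.71 without WT replicate 3, and it was no call without both mice numbered 3 (-2.73, adjusted p = 0.0848) or in the WT mice alone (0.223). *Pax7* became a call with DESeq2 (0.0376), without mouse as a block (0.0299), in the WT mice alone (0.0309) and with libraries scaled by total counts alone (0.0482). The *Tal1* difference also became one with total counts alone (0.0497). In the WT mice alone the call of *Sox14* was lost (0.0773), and without Fmr1CRE replicate 1 *Gata2* was called higher in forebrain (0.0388).

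Expressed as the share of a mouse's summed CPM over its 3 regions, the midbrain share was 94.6% ± 6.46 for *Foxa2*, 91.8% ± 13.2 for *Pax7* and 82.7% ± 10.2 for *Sox14* (SD, n = 6). It was 78.0% ± 17.0 for *Gata3*, 76.3% ± 11.2 for *En1* and 60.6% ± 12.8 for *Tal1*. These 6 genes had the larger part of their signal in midbrain. *Lmx1b* (40.7% ± 21.0), *Gata2* (38.1% ± 9.41), *En2* (36.0% ± 12) and *Pou4f1* (30.3% ± 7.55) did not. The hindbrain share was 61.8% ± 12.1 for *En2*, 61.0% ± 12.2 for *Pou4f1* and 55.7% ± 21.3 for *Lmx1b*.

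**Figure D3:**
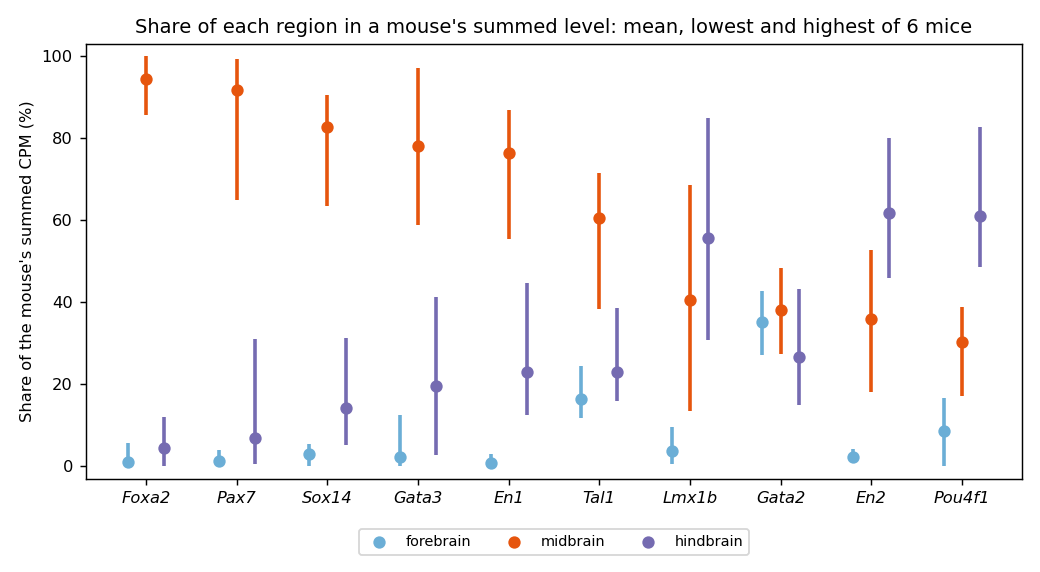
Share (%) of each mouse's summed CPM that lay in forebrain, midbrain and hindbrain, for each gene; points are means and lines run from the lowest to the highest of 6 mice. *Foxa2* had the highest mean midbrain share (94.6%) and *Pou4f1* the lowest (30.3%).

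Within midbrain the genes were ordered by CPM per kilobase of effective transcript length, with transcripts weighted by their estimated reads. The counts were already scaled by transcript length, so this scale compares genes only roughly where a short transcript holds much of the abundance. In *Pou4f1* 1 such transcript held 73.4% of the abundance and 19.3% of the reads, in *Lmx1b* 33.0% and 2.29%, and in *Gata2* 25.4% and 3.56%. The places of these genes in the order are uncertain. The means ran from 5.31 ± 3.52 for *Gata3* and 3.70 ± 1.23 for *En2* through 1.85 ± 0.544 for *En1*, 1.80 ± 0.483 for *Tal1* and 1.31 ± 0.432 for *Gata2* (SD, n = 6). Below them came *Pou4f1* at 1.10 ± 0.271, *Sox14* at 1.05 ± 0.305, *Pax7* at 0.667 ± 0.299, *Lmx1b* at 0.596 ± 0.318 and *Foxa2* at 0.358 ± 0.151. Of the 9 pairs of neighbours in this order, *En2* was above *En1*, and *Sox14* above *Pax7*, in 6 of 6 libraries (two-sided exact sign-flip test on log2 values, p = 0.03125 for each, 0.141 after Benjamini-Hochberg adjustment over the 9 pairs). In the other pairs the order was held by 3 to 5 of the 6 libraries (p between 0.219 and 0.719), so those neighbours did not differ beyond their spread on this scale. The first place of *Gata3* rests on counts that exceed its estimated reads, as described above.

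The genes that work with these factors were counted by lists of known roles. Over all genes tested, 9.42% were called higher and 8.79% lower in midbrain than in forebrain. Against hindbrain 25.2% were called higher and 23.9% lower, and every count of calls in a list stands beside these shares. Of 12 tectal and dorsal regulators 11 were tested, and 10 were higher and 1 was lower in midbrain than in forebrain, while against hindbrain 4 were higher and 4 lower. *Pou4f2*, a relative of *Pou4f1* made in the tectum, was higher in midbrain than in forebrain by 7.64 and than in hindbrain by 1.33 (log2; adjusted p = 7.04e-07 and 5.76e-04, edgeR). *Barhl1* rose by 5.36 and 1.02 in the same comparisons (adjusted p = 1.04e-05 and 0.0288). *Pax3*, the paralog of *Pax7*, exceeded forebrain by 5.05 and was below hindbrain by a log2 difference of -1.17 (adjusted p = 1.01e-05 and 0.00378), so that the 2 paralogs had their highest level in different regions. *Lhx1* exceeded forebrain by 3.85 (1.34e-05), and its difference to hindbrain was 0.03 (0.951). *Pou4f3*, which was under the filter, had 4 to 20 counts in midbrain and 0 to 3 elsewhere.

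Of 18 partners of the GABAergic selectors, such as GATA cofactors and LMO proteins, 14 were tested. Against forebrain 3 were higher in midbrain and 4 lower, and against hindbrain 7 were higher and 1 lower. *Zfpm2*, a GATA cofactor, was higher in midbrain than in forebrain by 1.301 and than in hindbrain by 0.63 (log2; adjusted p = 5.46e-05 and 0.00217, edgeR). Its relative *Zfpm1* differed from forebrain by -0.52 (0.197) and exceeded hindbrain by 0.81 (0.0253). *Lmo1* exceeded forebrain by 0.52 (0.0245), and its difference to hindbrain was 0.34 (0.0694). *Tal2*, the relative of *Tal1* that acts in the embryonic midbrain, had 3 to 13 counts in every library and was under the filter.

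Of 12 regulators of floor plate and monoamine neurons 11 were tested, and 6 were higher and 1 lower in midbrain than in forebrain, against 6 higher and 3 lower beside hindbrain. *Foxa1*, the paralog of *Foxa2*, was higher in midbrain by 3.88 against forebrain and 4.62 against hindbrain (log2; adjusted p = 1.87e-04 and 1.07e-05, edgeR). Its mean level was 1.17 CPM in midbrain, 0.075 in forebrain and 0.044 in hindbrain. It thus passed the filter on low counts through midbrain almost alone, and a difference was built into its being tested. *Nr4a2* (Nurr1), which dopamine neurons need, was higher by 1.64 (0.00902) and 2.71 (9.12e-05). *Fev*, a factor of serotonin neurons, was higher by 6.85 (4.81e-05) and 1.12 (0.0429). *Lmx1a*, the paralog of *Lmx1b*, exceeded forebrain by 1.48 (0.00901), and its difference to hindbrain was -0.46 (0.233). *Pitx3* was under the filter, with 2 to 31 counts in midbrain, 0 to 1 in forebrain and 0 to 5 in hindbrain.

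The neurons that keep *Foxa2* and *Lmx1b* were present in the midbrain libraries by their own products. The dopamine transporter gene *Slc6a3* was higher in midbrain by 5.45 against forebrain and 7.80 against hindbrain (log2; adjusted p = 1.77e-04 and 4.30e-06, edgeR), and *Th*, the enzyme of dopamine synthesis, by 2.60 (6.16e-04) and 1.72 (0.00206). The mean level of *Slc6a3* was 30.4 CPM in midbrain, 1.60 in forebrain and 0.167 in hindbrain. Like *Foxa1*, it passed the filter on low counts mainly through midbrain, so a difference was built into its being tested. The serotonin transporter gene *Slc6a4* was higher by 8.18 (1.68e-06) and 1.16 (0.00892). *Tph2*, the enzyme of serotonin synthesis, exceeded forebrain by 3.59 (1.73e-05), and its difference to hindbrain was 0.71 (0.0696). Over the lists, 7 of 8 dopamine neuron genes were higher and 1 lower in midbrain than in forebrain, and 5 were higher and 1 lower than in hindbrain. The summed CPM of these 8 genes went another way, with 389 to 477 in hindbrain, 280 to 404 in midbrain and 144 to 195 in forebrain. Of 6 serotonin neuron genes 4 were higher against forebrain and none lower, and 4 were higher and 1 lower against hindbrain.

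Of 10 genes of the isthmus and of regional identity 7 were tested, with 2 higher and 1 lower in midbrain than in forebrain, and 3 higher and 3 lower than in hindbrain. *Pax2* exceeded forebrain by 3.48 and was below hindbrain by a log2 difference of -2.55 (adjusted p = 1.48e-04 and 2.92e-05, edgeR). *Otx2*, the forebrain and midbrain determinant, differed from forebrain by 0.61 (0.0713) and from hindbrain by -0.59 (0.0359), and *Gbx2*, its counterpart behind the isthmus, by -0.46 (0.402) and -0.14 (0.778). *Pax5* was higher in midbrain by 4.77 (0.00314) and 4.19 (0.00139), though its table count was 4.07 times its estimated reads for the same reason as that of *Gata3*.

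**Figure D4:**
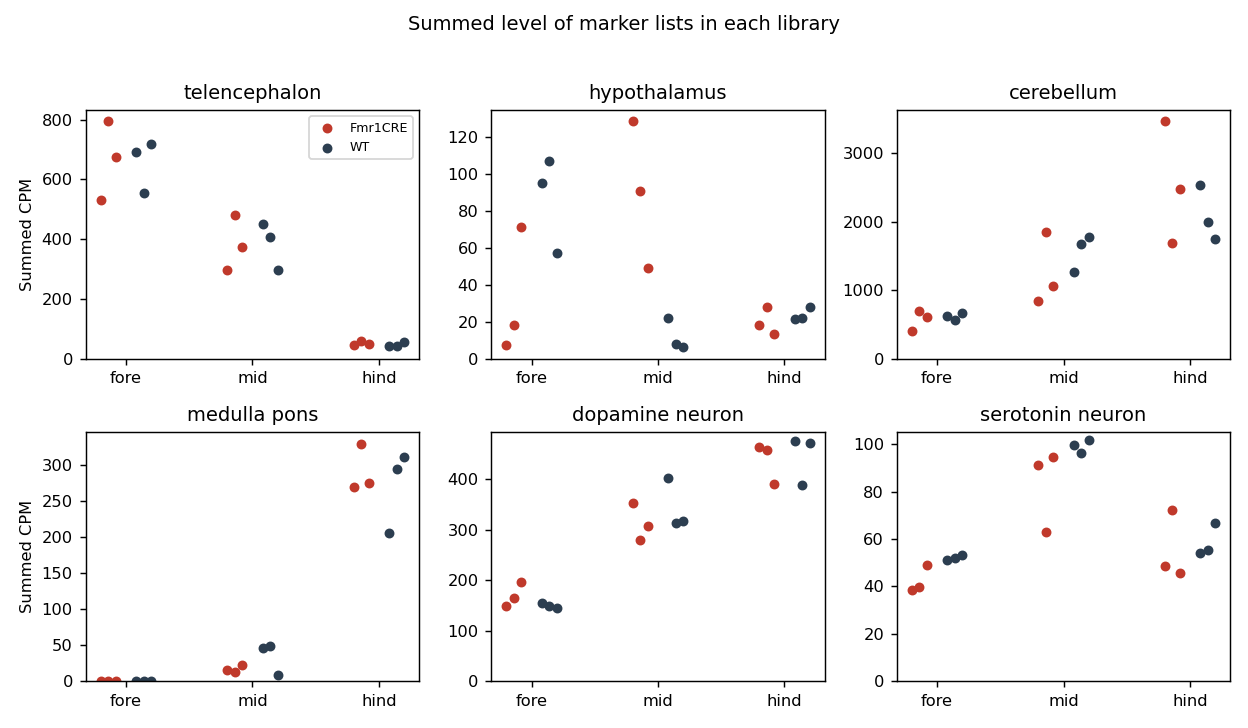
Summed CPM of 6 marker lists in the 18 libraries, by region and genotype; each point is 1 library. Cerebellar genes rose from forebrain to hindbrain, genes of medulla and pons were highest in hindbrain, and the hypothalamic list stood higher in the Fmr1CRE than in the WT midbrain libraries.

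By likeness of log2 CPM over the 18 libraries, which share regions, mice and dissection, the genes nearest to each factor were named as a description. *En1* was nearest to *C1ql4* (Pearson r = 0.987), *Pou4f2* (0.975) and *Slc18a2* (0.975), the last the monoamine transporter of synaptic vesicles. *En2* was nearest to *Cbln3* (0.991), *Gabra6* (0.991) and *Pcp2* (0.988), all genes of the cerebellar cortex. *Foxa2* was nearest to *Foxa1* (0.939), *Slc6a3* (0.929) and *Zcchc18* (0.910). *Pax7*, *Tal1* and *Sox14* shared *Peg3* as the nearest gene, at 0.942, 0.919 and 0.947, and *Gprasp1* among the nearest 3, at 0.915, 0.899 and 0.937. *Epb41l4a* completed the list of *Pax7* (0.917) and *Tal1* (0.904), and *Cbln4* that of *Sox14* (0.926).

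The lists of the remaining factors differed from those. *Gata3* was nearest to *Chst8* (0.906), *Tfg* (0.904) and *Elavl4* (0.901), *Lmx1b* to *C130021I20Rik* (0.944), *Irx3* (0.931) and *Sfrp5* (0.930), and *Pou4f1* to *Clrn1* (0.942), *Rab37* (0.942) and *Nhlh2* (0.941). The noncoding gene *C130021I20Rik* is the neighbour of *Lmx1b* in the RefSeq annotation. *Gata2* had no gene as near, its first being *Srebf1* (0.841), *Tnpo3* (0.807) and *Pappa2* (0.790). Among the 10 factors themselves, the highest values were 0.966 for *Pax7* with *Tal1*, 0.952 for *Tal1* with *Sox14*, 0.939 for *Pax7* with *Sox14*, 0.918 for *En1* with *Sox14* and 0.904 for *En2* with *Lmx1b*. *Gata2* correlated with the other 9 between -0.382 and 0.275.

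The study's own comparison was between genotypes. In midbrain, 0 of the 10 factors passed an adjusted p of 0.05 between Fmr1CRE and WT mice (edgeR, 3 against 3), where 0.00543% of the 18400 genes tested, 1 gene, passed. The values lay below 0, with the lower level in Fmr1CRE, for 9 of the 10, with a median log2 difference of -0.55 beside -0.0046 over all genes tested. At an unadjusted p under 0.05 there were 3 of the 10 against 6.17% of all genes, and in 4 of the 10 every Fmr1CRE library was below every WT library, against 4.85% of genes. With 3 mice against 3 the two-sided exact permutation test cannot go below 0.1, and it gave that value for these 4. The count of 3 did not hold up against the background when WT replicate 3 was left out, with 1 of 10 against 11.9% of genes, and it was 2 of 10 against 11.8% without the libraries numbered 3 and 0 of 10 against 4.68% in 1 fit of all 18 libraries. Without each of the other 5 libraries it was 3 or 4 of 10 against 4.01% to 6.30% of genes. With the replicate number as a block it was 5 of 10 against 4.73%, and without a filter 4 of 10 against 5.08%. DESeq2, its size factors in edgeR and total counts alone each gave 3 of 10, against 5.94%, 6.13% and 6.03%.

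*Pax7* had the lowest value of the 10. Its midbrain level was 2.84 ± 0.814 CPM in Fmr1CRE and 5.92 ± 1.35 in WT (SD, n = 3), and the counts of 88, 52 and 74 did not reach those of 171, 137 and 140. The log2 difference was -1.06 ± 0.27 (SE; 95% confidence interval -1.69 to -0.43; unadjusted p = 0.00482 and adjusted p = 0.751, edgeR). It ranged from -1.27 to -0.85 when single libraries were omitted. *Tal1* differed by -0.58 (interval -1.09 to -0.079; unadjusted p = 0.0287 and adjusted 0.803, edgeR), *En1* by -0.58 (interval -1.12 to -0.045; 0.0372 and 0.806) and *Sox14* by -0.65 (interval -1.30 to 0.0020; 0.0506 and 0.806). In these 4 genes the genotypes did not overlap, and none passed the adjustment. These values include the libraries numbered 3, which carry the doubt described above.

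The other 6 overlapped between genotypes. The log2 difference was -0.88 for *Lmx1b*, -0.52 for *En2*, -0.39 for *Pou4f1*, -0.27 for *Gata3* and -0.21 for *Gata2*, with unadjusted p-values from edgeR of 0.119, 0.112, 0.167, 0.675 and 0.575. The *Lmx1b* value was -1.69 without Fmr1CRE replicate 3 and -1.88 without both libraries numbered 3. *Foxa2* was the 1 factor with a positive value, 0.70 (interval -0.17 to 1.57; unadjusted p = 0.101, edgeR). Its midbrain level was 0.915 ± 0.377 CPM in Fmr1CRE and 0.561 ± 0.0815 in WT (SD, n = 3).

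**Figure D5:**
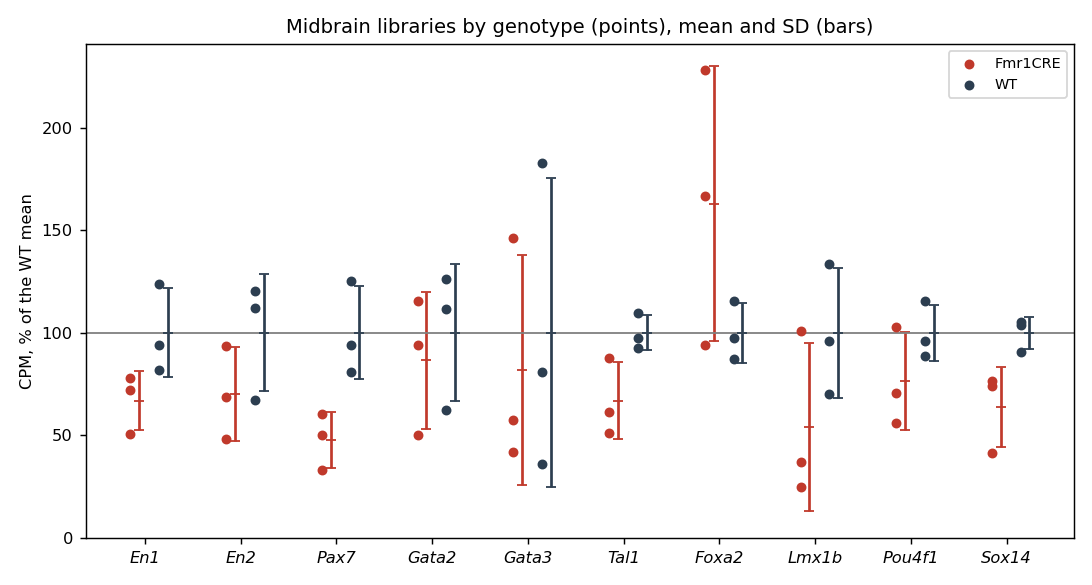
Midbrain CPM of each gene as a percentage of the WT mean, with 1 point per library and the mean ± SD of 3 mice in each genotype. The genotypes did not overlap in *En1*, *Pax7*, *Tal1* and *Sox14*, with Fmr1CRE lower, and *Foxa2* was the 1 gene with a higher mean in Fmr1CRE.

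Lists of other genes also had values away from 0 between genotypes in midbrain, with no gene called (edgeR). Over all genes tested there, 6.17% had an unadjusted p under 0.05. Of 11 tectal and dorsal regulators tested, 10 were below 0, with a median log2 difference of -0.42 and 4 at an unadjusted p under 0.05. Of 14 partners of the GABAergic selectors 7 were below 0 and 7 above. The 4 GABAergic neuron genes, of which 3 were below 0, summed to 1030 to 1188 CPM in Fmr1CRE and 1174 to 1369 in WT. Of 12 thalamic markers 11 were above 0, with a median of 0.30 and 4 at an unadjusted p under 0.05, and a sum of 508 to 600 CPM in Fmr1CRE against 434 to 525 in WT. Of 12 hypothalamic markers 11 were tested, and 11 of 11 were above 0, with a median log2 difference of 2.36, 9 at an unadjusted p under 0.05 and 0 called (edgeR). Their summed CPM was 49.2 to 128 in the Fmr1CRE midbrain libraries and 6.42 to 22.0 in the WT ones, with none of the 12 at 0 in either genotype. In forebrain the same sum was 7.67 to 71.2 in Fmr1CRE and 57.3 to 107 in WT. Of 12 cerebellar markers 12 were below 0 in midbrain, with a median of -0.29, and a sum of 843 to 1851 in Fmr1CRE against 1259 to 1771 in WT. The 6 serotonin neuron genes summed to 63.0 to 94.6 in Fmr1CRE and 96.2 to 102 in WT, and the 12 telencephalic genes to 297 to 481 and 298 to 452. Their part in the differences of the 10 factors was not tested, and a shift in the tissue taken at dissection and an effect of genotype cannot be told apart in 3 mice against 3.

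Outside midbrain the values went the other way for some of the same genes. In hindbrain 0% of the 19112 genes tested passed, and of the 7 factors tested 6 were above 0, with a median of 0.30 beside -0.0091 over all genes. *En1*, with 53, 82 and 34 counts in Fmr1CRE and 35, 40 and 33 in WT, was the 1 factor of the 10 whose Fmr1CRE libraries all lay higher in CPM, which held for 5.11% of genes. Its log2 difference was 0.67 (interval -0.067 to 1.40; unadjusted p = 0.0693 and adjusted 0.875, edgeR). In forebrain 0% of the 18467 genes tested passed, and 4 factors were tested. *En2* was higher in each Fmr1CRE library, at 1.32 ± 0.503 CPM against 0.647 ± 0.307 (SD, n = 3), with a log2 difference of 1.04 (interval -0.0094 to 2.09; unadjusted p = 0.0516 and adjusted 0.806, edgeR) and 1.15 without the libraries numbered 3. Together with *Pax7*, at 1 to 3 counts against 0, it made 2 of 10 factors with no overlap there, against 4.43% of genes. The values of the other factors tested in forebrain were 0.47 for *Tal1*, 0.23 for *Pou4f1* and -0.35 for *Gata2*, and without the libraries numbered 3 they were 0.58, -0.71 and -0.34. Between genotypes DESeq2 called 31 (forebrain), 62 (midbrain) and 60 (hindbrain) genes, 0 of the 10 factors among them.

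With the counts of the 3 regions summed per mouse, 0 of the 10 factors were called between genotypes, where 0.00451% of 22191 genes passed. Here 1 of the 10 was below an unadjusted p of 0.05, against 3.7% of genes. This was *Pax7*, with a log2 difference of -0.83 (interval -1.26 to -0.40; unadjusted p = 0.0021 and adjusted 0.998, edgeR), and with each mouse left out it ran from -0.92 to -0.68. It was not fitted without both mice numbered 3. The values of the other 9 lay between -0.44 for *Sox14* and 0.78 for *Foxa2*. Whether the genotype difference itself varied between regions was tested within mice, and 0% of 20363 genes passed. At an unadjusted p under 0.05 there were 2 of the 10 factors against 7.14% of genes. These were *Pax7* (0.0439) and *En2* (0.0457), each with an adjusted p of 0.680 (edgeR). Without the mice numbered 3 the count was 3 of 10 against 24.2% of 20602 genes, with 0 of the 10 and 83 of all genes called.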

How the data were processed

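Poly(A) RNA of forebrain, midbrain and hindbrain from 6 mice (3 Fmr1CRE, 3 WT) had been sequenced as single-end reads of 50 bases in 2 pools of 9 libraries, and which library was in which pool was not given in the sources used here. The authors quantified reads against mm10 with Salmon 0.14.0, and the submitters' processing notes also name DESeq2 1.30.1; the strand setting and the annotation were not given in the sources used here. The deposited gene table holds estimated counts. They matched length-scaled abundances rather than summed reads (99.6% of sorted values within 1 count, against 73.8%), so they are not the raw counts for which the tests were planned, and a gene with a very short transcript can hold more counts than reads. The 18 deposited transcript tables, with estimated counts, TPM and effective lengths, could not be tied to samples and served only for lengths and this check. A deposited table of variance-stabilized log2 values by the authors, of which 1612 genes were complete in the copy used here, was read for *Gata2* alone.

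Counts were tested as deposited with edgeR 4.0.16 in R 4.3.3 (quasi-likelihood test, TMM, filterByExpr, Benjamini-Hochberg over all genes passing the filter). Regions were compared over 18 libraries with mouse as a block, and genotypes within each region, on counts summed per mouse and as an interaction within mice. Single values were tested by two-sided exact sign-flip tests over 6 mice or exact permutations of 3 against 3. The unit of replication was the mouse, and all mice came from 1 litter by the study's methods, so p-values measure the spread between these mice. Log2 CPM used a prior count of 2. The fits were tested on simulated data. For a true log2 change of 1 between genotypes in midbrain, edgeR recovered 55.05% of the changed genes, and 9.17% of its calls were unchanged genes. With DESeq2 these values were 71.7% and 27.55%. For a true change of 2 they were 94.4% and 7.04% with edgeR, and 96.9% and 20.2% with DESeq2. Named were the 10 genes in every comparison, a fixed set of genes with related roles (values of some are not reported here), and for each of the 10 the 3 genes nearest by correlation. The 10 genes and the lists were chosen with earlier results of these data known. Alternatives were DESeq2 1.42.0, DESeq2 size factors, total counts alone, other filters, a prior count of 0.5, either genotype alone, and each mouse or library left out. Samples of the same replicate number did not deviate together between genotypes (correlations -0.136 to 0.0693). Regions of the same mouse, which are paired, gave correlations of only -0.171 to 0.184. The check therefore cannot tell whether the replicate numbers pair the samples. The rule that raised the doubt about the mice numbered 3 was chosen after seeing the data. Among replicates, no 2 libraries agreed within sampling noise.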

Additional observations from a re-analysis of the deposited data

Results flagged for a closer look

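In 6 of the 30 sets formed by a gene and a region, 1 of the 6 libraries stood apart from the rest by Dixon's criterion. For normally distributed values chance alone gives about 1 in 20 sets, or 1.5. These values were CPM on a linear scale, some of them from few counts, for which that rate need not hold, so the 6 do not measure an excess. All 6 were the highest library of their set. In forebrain they were *En1* at 0.212 CPM and *Foxa2* at 0.0849 CPM, both in Fmr1CRE replicate 3, and *Gata3* at 2.53 CPM in WT replicate 2. In hindbrain they were *En1* at 2.96 CPM, *Pax7* at 0.938 CPM and *Tal1* at 4.94 CPM, all in Fmr1CRE replicate 2. The *En1* and *Foxa2* forebrain values rest on 5 and 2 counts. The hindbrain library of Fmr1CRE replicate 2 was thus the highest for 3 genes that are higher in midbrain than in hindbrain, and the part of midbrain tissue in that library was not tested.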

How the results depend on the processing

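Of 1029 values recomputed under alternatives, 933 kept their direction and side of the threshold or stayed within their range, 24 fell below the threshold, 9 rose past it, 26 changed sign and 37 moved; the causes were not tested. Between genotypes no alternative called any of the 10 genes, while the count over all genes was 0 in forebrain (1 with 1 fit of all libraries, 31 with DESeq2), 1 in midbrain (0 with 1 fit, 62 with DESeq2, 3 without the libraries numbered 3, 11 without a filter, 0 to 4 with 1 library left out) and 0 in hindbrain (1 with 1 fit, 60 with DESeq2, 1 without the libraries numbered 3, 11 without a filter, 0 to 5 with 1 left out). In midbrain the 4 came without Fmr1CRE replicate 3, and in hindbrain the 5 came without WT replicate 3. On summed counts it was 1, and 0 with the replicate block and 0 to 0 with a mouse left out. With the replicate number as a block, 0, 1 and 0 genes were called in forebrain, midbrain and hindbrain. The interaction had 0 calls, and 83 without the mice numbered 3. Between regions, genes called fell for midbrain against forebrain from 3518 to 2165 without the mice numbered 3, 1261 in WT alone and 182 in Fmr1CRE alone, where 4 of the 10 factors were called in place of 9. In Fmr1CRE alone the other comparisons fell from 9975 to 5933 (forebrain against hindbrain) and from 9484 to 4565 (midbrain against hindbrain). With no replicate block for mouse, the region comparisons called 3940, 9734 and 10159 genes (midbrain against forebrain, midbrain against hindbrain, forebrain against hindbrain).

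Changes of sign were all in values that were no calls. For genotype in forebrain, *Pou4f1* (0.23) was -0.71 without the libraries numbered 3, -0.078 with the replicate block and -0.054, -0.32 and -0.14 without Fmr1CRE 1, Fmr1CRE 3 or WT 3 (up to 0.82 with others left out). In midbrain, *Gata2* was 0.061 without Fmr1CRE 1, and *Gata3* 0.039 without Fmr1CRE 2 and 0.49 without WT 1 (down to -0.47 and -1.0 with others left out). In hindbrain, *Gata3* was -0.16 without Fmr1CRE 2 and -0.11 without WT 1 (up to 0.84 with others left out), and *Pou4f1* 0.33 without the libraries numbered 3 and 0.13, 0.091 and 0.18 without Fmr1CRE 1, Fmr1CRE 3 or WT 3 (down to -0.47). On summed counts, *En2* was -0.10, -0.038 and -0.024 without Fmr1CRE 1, WT 1 or WT 3 (up to 0.089), *Gata2* 0.12 without Fmr1CRE 1 (down to -0.27), *Gata3* 0.049 and 0.26 without Fmr1CRE 3 or WT 1 (down to -0.76), *Lmx1b* 0.18 without WT 2 (down to -0.36) and *Pou4f1* 0.0074 without WT 3 (down to -0.27). Between regions, *Gata2* against forebrain was -0.11 without the mice numbered 3 and -0.013 without Fmr1CRE 3 (up to 0.25 with others left out), and its forebrain to hindbrain difference was -0.051 in Fmr1CRE alone. *Lmx1b* against hindbrain was 0.22 in WT alone. A prior count of 0.5 moved 5 of 30 mean levels, all of them near 0 counts. Depth limits the forebrain levels of *En1*, *Pax7*, *Foxa2* and *Sox14*, which rest on 2 to 10 counts in all.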
